A study of Mus musculus with 6 samples.

Results

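The genes described here carry oxygen in red cells or handle heme and iron: the adult alpha hemoglobins Hba-a1 and Hba-a2, the adult beta hemoglobins Hbb-bs and Hbb-bt, Alas2, Hmox1, Slc40a1, Fth1, Ftl1 and Tfrc. They were chosen by symbol as 10 of the 21899 genes in the count data, and all 10 passed the filter on low counts that left 14956 genes for testing. Bulk RNA sequencing was done on thalamus tissue of male C57BL/6J wild-type mice, obtained at 8 to 10 weeks of age. All of the mice had received a single dose of 50 Gy to the left thalamus and, 2 weeks later, 2 µL of an AAV9 virus in the irradiated region. In the 3 control-virus mice (RC1, RC2 and RC3) the virus was GFAP104::tdTomato, which drives a red fluorescent protein from an astrocyte promoter. In the 3 NeuroD1-treated mice (RN1, RN2 and RN3) it was GFAP104::mND1-tdTomato, which adds the mouse NeuroD1 transcription factor. Tissue below the hippocampus was taken 6 weeks after irradiation from brains rinsed with saline through the circulation, so each library holds the RNA of every cell type there, and unirradiated mice were not analysed here. In such tissue fewer cells of a type and less RNA per cell cannot be told apart. The comparison asks which of these genes differed between NeuroD1 and control virus in irradiated thalamus.

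Red cells lose their nucleus but carry leftover hemoglobin mRNA into the circulation, so hemoglobin transcripts in a tissue extract can come from blood in its vessels or from blood that has leaked, and some brain cells also make small amounts of hemoglobin. Heme released from hemoglobin is opened by heme oxygenase, the product of Hmox1, which frees iron. That iron is stored in ferritin, a shell of heavy (Fth1) and light (Ftl1) chains, or leaves the cell through ferroportin (Slc40a1), while new iron enters through the transferrin receptor (Tfrc). Much of this control acts on mRNA already made: iron regulatory proteins bind a short hairpin, the iron-responsive element, and block translation when it lies in a 5′ UTR or protect the mRNA from decay when it lies in a 3′ UTR.

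The hairpins are shown because 5 of the 10 genes share one, and because iron is best known to act on the 5′ UTR elements at translation, a step that mRNA counts do not read. In the GENCODE M21 transcripts of these genes (mouse genome build GRCm38) a search for CNNNNNCAGTGN with 5 paired upper-stem bases found a match in 5 genes. The elements of 29 bases are printed 5′ to 3′ with the bulged C and the CAGTG of the loop in capitals.
Alas2 5′ UTR, bases 84 to 112: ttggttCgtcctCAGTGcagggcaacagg
Slc40a1 5′ UTR, bases 90 to 118: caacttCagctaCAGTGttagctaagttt
Fth1 5′ UTR, bases 87 to 115: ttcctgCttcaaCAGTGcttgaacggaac
Ftl1 5′ UTR, bases 78 to 106: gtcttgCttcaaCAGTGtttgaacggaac
Tfrc 3′ UTR, bases 3315 to 3343: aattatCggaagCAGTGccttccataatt
Tfrc 3′ UTR, bases 3806 to 3834: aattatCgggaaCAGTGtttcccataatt
Positions count from the 5′ end of the transcript. The pattern matched 2 more places in the Tfrc 3′ UTR, at bases 3694 to 3722 and 3759 to 3787, and none in the transcripts of Hba-a1, Hba-a2, Hbb-bs, Hbb-bt or Hmox1. Of 21877 protein-coding mouse genes, each by its longest transcript, 271, or 1.24%, held such a match. The match is a description of letters and pairing, not a measurement of binding.

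The hemoglobin copies are nearly the same sequence, which bears on how their counts are read. The coding sequences of Hba-a1 and Hba-a2, 429 bases each, differ at 1 base, and so do those of Hbb-bs and Hbb-bt, 444 bases each. The last 60 coding bases of the beta pair are printed with the differing base in capitals.
Hbb-bs, coding bases 385 to 444: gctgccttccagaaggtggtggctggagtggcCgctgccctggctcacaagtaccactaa
Hbb-bt, coding bases 385 to 444: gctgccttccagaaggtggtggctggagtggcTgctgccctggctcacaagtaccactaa
Of all stretches of 100 bases in the transcript, the share found in identical form in the partner gene was 56.5% for Hba-a1, 74.5% for Hba-a2, 62.6% for Hbb-bs and 54.8% for Hbb-bt. For Ftl1 60.4% of stretches recurred in ferritin light chain pseudogenes and similar loci (Ftl1-ps1, Ftl2-ps, Gm15590 and Gm22133), whereas for Fth1 0.964% recurred elsewhere, in Gm6977. Since the handling of shared reads is not given in the sources used here, the division of counts between copies is uncertain, and the hemoglobins were also taken as a sum.

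Promoters of the red cell genes are shown as a description of sequence, and their part in the levels below was not tested. RefSeq promoter sequences (GRCm38.p6) were found for 8 of the 10 genes, and Hmox1 and Slc40a1 had no entry. The 150 bases before the start are given 5′ to 3′ in the direction of the gene, and capitals mark TATAA (the TATA box), CCAAT, the erythroid element CACCC and the GATA factor letters GATAAG on either strand.
Hba-a1, chr11:32283522-32283671, plus strand: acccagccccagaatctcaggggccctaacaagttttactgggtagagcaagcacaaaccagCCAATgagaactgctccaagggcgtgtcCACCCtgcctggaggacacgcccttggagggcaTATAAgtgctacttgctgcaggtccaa
Hbb-bs, chr7:103827929-103828078, minus strand: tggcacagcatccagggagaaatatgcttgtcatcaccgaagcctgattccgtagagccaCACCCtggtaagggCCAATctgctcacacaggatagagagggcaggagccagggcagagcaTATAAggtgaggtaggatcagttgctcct
Hbb-bt, chr7:103813924-103814073, minus strand: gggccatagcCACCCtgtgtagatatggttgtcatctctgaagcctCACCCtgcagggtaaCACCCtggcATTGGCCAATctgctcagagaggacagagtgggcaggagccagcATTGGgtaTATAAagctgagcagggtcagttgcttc
Alas2, chrX:150547267-150547416, plus strand: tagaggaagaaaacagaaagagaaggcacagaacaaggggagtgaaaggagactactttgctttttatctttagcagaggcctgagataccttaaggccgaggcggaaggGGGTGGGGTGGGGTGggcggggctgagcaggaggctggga
The hemoglobin windows each held TATAA nearest the start, with CCAAT and CACCC farther upstream. In the Alas2 window CACCC was the only one of these motifs found, 3 times side by side on the reverse strand. In the 250 bases before the start, a longer window, Hba-a1 and Hba-a2 share a run of 247 bases, so only Hba-a1 is printed. Among 32851 mouse promoters of the same length TATAA occurred in 14.2%, CCAAT in 24.5%, CACCC in 37.4% and GATAAG in 3.75%.

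Library totals lay between 16561663 and 18657015 counts, and 3 counts, the limit that a count of 0 allows, stood for 0.160 to 0.179 counts per 1000000 counts (CPM, here scaled by edgeR's TMM factors). This floor, like every interval below that is named as a counting interval, covers counting error only. Neurod1 was at 5.10 ± 0.367 CPM in RC mice and 69.7 ± 20.5 CPM in RN mice (SD, n = 3 mice each), which fits the labels but can include viral transcripts. Markers of neurons, astrocytes and oligodendrocytes were detected in every library. RC1 and RC2 stood apart in choroid plexus genes: the 12 markers summed to 2774 CPM in RC1, 8430 in RC2 and 330 in RC3, against 75.8, 107 and 152 in RN1, RN2 and RN3. For genes whose fitted difference is given below, the value with a choroid plexus score in the fit is therefore added where it turns the sign or moves the unadjusted p across 0.05. The score was 0.896, 1.59 and -0.350 in RC1, RC2 and RC3 and -0.812, -0.706 and -0.620 in RN1, RN2 and RN3. It was lower in every RN mouse than in every RC mouse. In a fit with the score, choroid plexus content and the group difference can therefore not be fully told apart.

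None of the 10 genes met both limits for a call, 0.05 for the adjusted p and 2 for the fold change in either direction, in edgeR's quasi-likelihood test, and DESeq2's Wald test called 0 at the same limits, while edgeR called 11 of all tested genes, or 0.0735%. At an unadjusted p under 0.05 the edgeR test gave 1 gene lower in RN, Fth1, and 0 higher. Over all tested genes 6.33% were lower and 5.44% higher at that level, so a single gene of 10 is close to this background. These shares are also the background for the list counts below that come from this edgeR fit. Fth1 was also the only gene of the 10 whose groups did not overlap in CPM. Of all tested genes 8.12% lay lower and 8.18% higher in RN without overlap. By sign 8 of the 10 fitted differences were below 0 and 2 above, and their median log2 fold change was -0.53, beside 0.0037 and 50.8% above 0 over all genes. The 4 hemoglobin rows and Alas2 make up most of the negative values and varied together, so they are not separate observations. Fth1 was not separate from them either: its log2 CPM correlated with the hemoglobin rows at Pearson's r of 0.717 to 0.786 over the 6 mice.

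**Figure D1:**
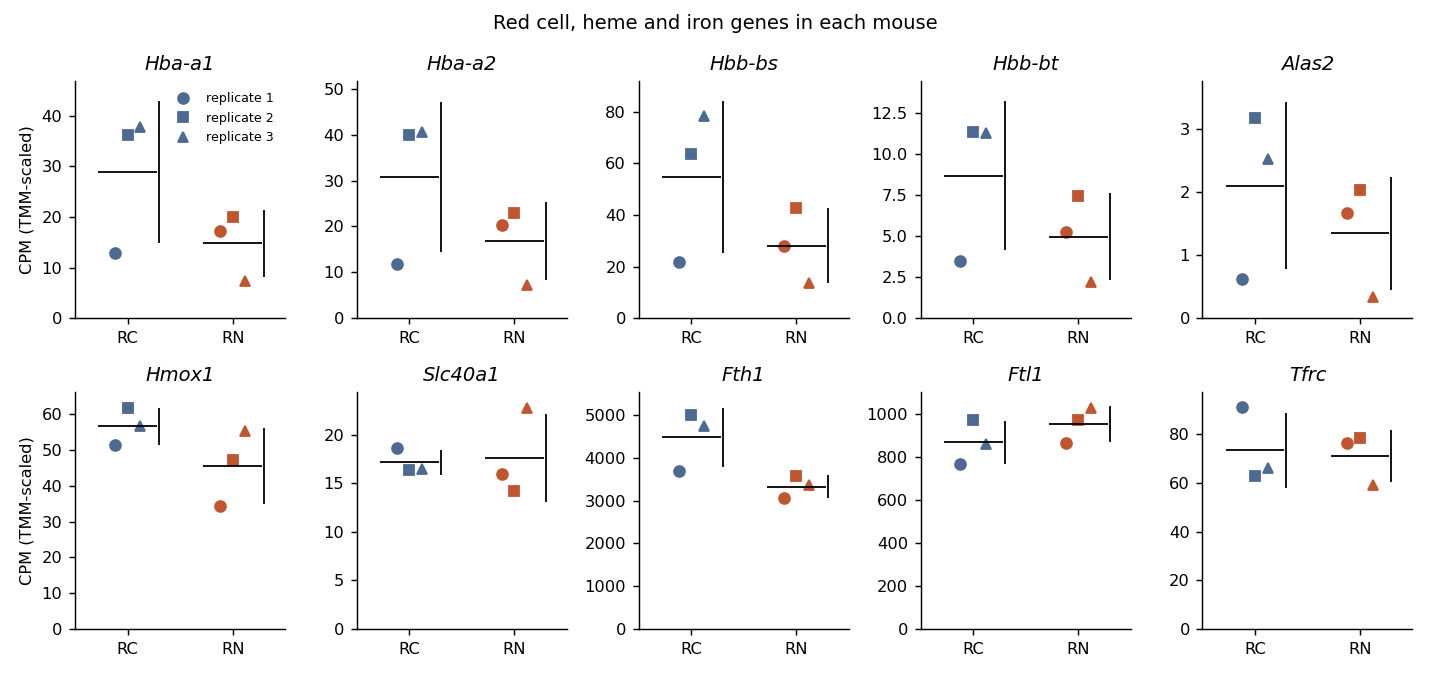
CPM of each of the 10 genes in each mouse, with separate y axes from 0. Symbols are the replicate numbers, horizontal lines the group means and vertical lines 1 SD to either side (n = 3). For the hemoglobins and Alas2, RC replicate 1 lies with the RN mice, and for Fth1 every RN mouse lies below every RC mouse.

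**Figure D2:**
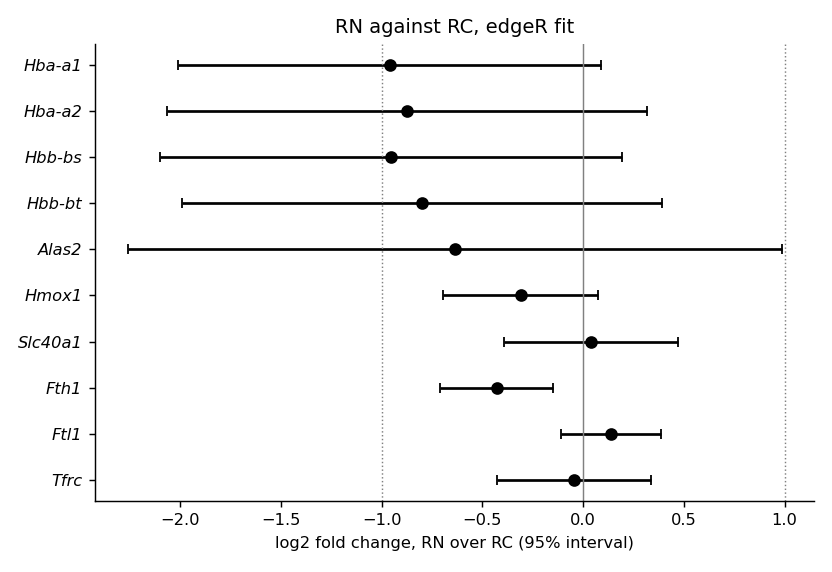
Log2 fold changes of RN over RC from edgeR with 95% intervals, and dotted lines at the 2-fold limits. The intervals of the hemoglobins and Alas2 span from beyond 2-fold lower to above 0, and that of Fth1 is the only one that leaves out 0.

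Hemoglobin transcripts were present in all 6 mice and lower on average in RN, but the groups overlapped in every hemoglobin row. Hba-a1 (ENSMUSG00000069919), an alpha chain gene, had 228, 605 and 658 counts in RC1, RC2 and RC3 and 290, 372 and 131 in RN1, RN2 and RN3. RC2 and RC3 were the highest mice, RN3 was the lowest, and RC1 fell below both RN1 and RN2. The group means were 28.9 ± 14.0 CPM in RC mice and 14.8 ± 6.63 CPM in RN mice (SD, n = 3 each). The fitted log2 fold change was -0.96, with a standard error of 0.456 and an adjusted p of 0.473 in edgeR.

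Hba-a2 (ENSMUSG00000069917), the second alpha chain gene, had 212, 670 and 708 counts in the RC mice and 342, 428 and 128 in the RN mice. Hbb-bs (ENSMUSG00000052305), an adult beta chain gene, had 388, 1066 and 1370 counts in RC mice and 472, 798 and 246 in RN. Hbb-bt (ENSMUSG00000073940), its partner, had 62, 190 and 197 counts in RC mice and 88, 140 and 40 in RN. All 3 repeated the order seen for Hba-a1, from RN3 at the bottom through RC1, RN1 and RN2 to RC2 and RC3, with RC2 and RC3 changing places in CPM only for Hbb-bt. Their log2 fold changes were -0.88 for Hba-a2, -0.95 for Hbb-bs and -0.80 for Hbb-bt, with adjusted p of 0.593, 0.527 and 0.631 in the edgeR test. The copies kept their proportions: Hba-a1 made up 45.9% to 51.8% of the alpha counts of a mouse, Hbb-bs 84.3% to 87.4% of the beta counts, and alpha counts were 0.853 to 1.13 times the beta counts. With the copies of each chain summed, the log2 fold change was -0.92 for alpha (standard error 0.485) and -0.93 for beta (standard error 0.499).

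As a share of all counts, the 4 hemoglobin rows together took 50.7 per 1000000 counts, unscaled, in RC1 (exact binomial 95% counting interval 47.5 to 54.2), 149 in RC2 (143 to 154) and 165 in RC3 (159 to 171). In RN1 the share was 72.0 (67.9 to 76.2), in RN2 93.2 (88.8 to 97.6) and in RN3 30.5 (28.03 to 33.2). None of these intervals overlapped, so the spread between mice exceeded counting error at every step of the order, within groups as well as between them. The means were 121 ± 61.6 per 1000000 counts in RC and 65.2 ± 31.8 in RN, a difference of -0.87 on the log2 scale (2-sided exact permutation test over the 6 mice, p = 0.3, where the smallest possible is 0.1).

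This comparison turned on single mice, most of all RC1. Without RC1 the log2 difference in the share was -1.41, and the edgeR test gave 5 of the 10 genes an unadjusted p under 0.05, the 4 hemoglobins and Fth1, with an adjusted p between 0.0965 and 0.310. Without RN3 the difference in the share was -0.39, and without RC3 it was -0.56. Leaving out RN2 gave 3 genes at an unadjusted p under 0.05, and leaving out RN3 gave 2. The share of all tested genes at that level was not counted in these fits, so these counts have no background beside them. The 4 hemoglobins varied together and do not count as separate observations.

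**Figure D3:**
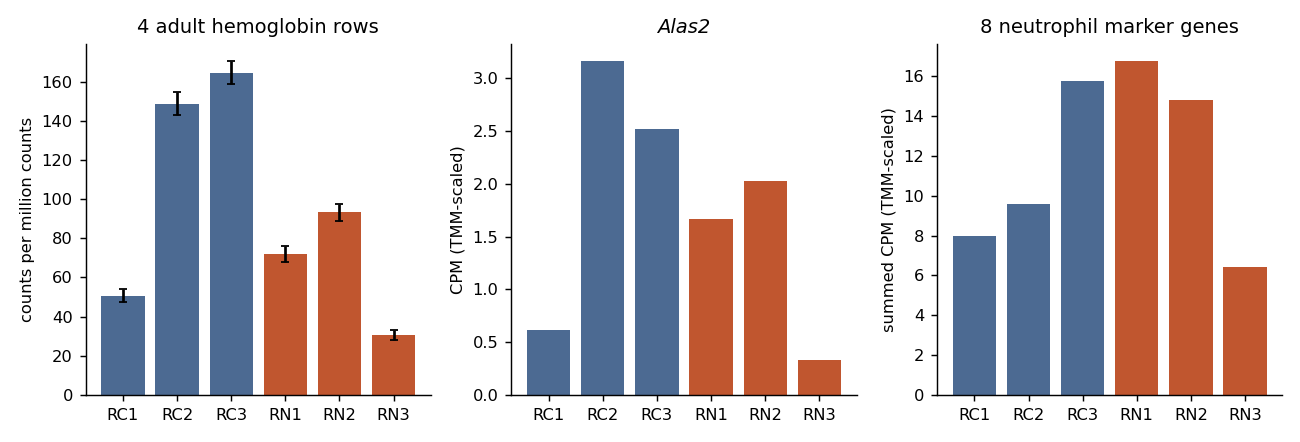
Summed hemoglobin counts per 1000000 counts with exact binomial 95% intervals, Alas2 in CPM, and the summed CPM of 8 neutrophil marker genes in each mouse (RC blue, RN orange). RN3 is lowest and RC1 next lowest in all 3 panels, and RC1 lies close to RC2 only in the last.

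Alas2 (ENSMUSG00000025270), the erythroid form of the first enzyme of heme synthesis, followed the hemoglobins at a low level. It had 11, 53 and 44 counts in RC1, RC2 and RC3 and 28, 38 and 6 in RN1, RN2 and RN3. RN3 and RC1 were again the lowest and RC2 and RC3 the highest. Its log2 fold change was -0.64 with a standard error of 0.706 (adjusted p = 0.813 in edgeR), with a 95% interval from -2.26 to 0.99. That value was -0.22 without RC2, -0.18 without RN3 and -1.08 without RC1. Over the 6 mice its log2 CPM correlated with that of the hemoglobin rows at Pearson's r of 0.935 to 0.977, and the hemoglobin rows with each other at 0.981 to 0.993, in libraries that the points share.

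The other enzymes of heme synthesis had small fitted differences. All 9 genes of that pathway, Alas2 included, were tested, 0 of them had an unadjusted p under 0.05 in edgeR, and DESeq2 gave 0 at an adjusted p under 0.05. Their median log2 fold change was -0.12, with 8 of 9 below 0. Alas1, the form of the first enzyme that all tissues use, was at 71.3 ± 10.2 CPM in RC mice and 61.6 ± 6.51 in RN (log2 fold change -0.21, adjusted p = 0.602). Urod and Fech, which act near and at the end of the pathway, gave -0.16 and -0.13. With the choroid plexus score all 3 of these turned, to 0.11 for Alas1, 0.0401 for Urod and 0.16 for Fech.

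The 3 other globins that could be tested had fitted differences above 0. Ngb (ENSMUSG00000021032), neuroglobin, an oxygen-binding protein of neurons, was at 19.01, 20.1 and 15.2 CPM in RC mice and 29.7, 25.9 and 30.9 CPM in RN mice. Every RN mouse lay above every RC mouse, and the fitted log2 difference was 0.67 (standard error 0.142, unadjusted p = 0.00141 and adjusted p = 0.126 in edgeR). DESeq2 gave an adjusted p of 0.00464 without a fold limit, a level that 1.38% of the genes DESeq2 tested reached in the higher direction. Cygb, cytoglobin, a globin of fibroblast-like and other cells, was at 92.7 ± 4.13 CPM in RC mice and 102 ± 4.62 in RN, without overlap (log2 fold change 0.14, adjusted p = 0.577). Mb, myoglobin, the oxygen store of muscle, gave 135, 113 and 22 counts in RC mice and 127, 104 and 115 in RN. Its fitted log2 difference was 0.33 (adjusted p = 0.883 in edgeR), which became -0.14 without RC3, the mouse with the fewest counts, and 2.38 with the choroid plexus score (unadjusted p = 0.00781, adjusted p = 0.325). The embryonic chains Hba-x, Hbb-bh1 and Hbb-bh2 had 0 counts in every mouse, and Hbb-y had at most 4 counts in a mouse.

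The transcripts of Klf1 and Gata1, which define red cell precursors, were near the floor. Klf1, a transcription factor of red cell precursors, had between 0 and 4 counts in a mouse, and Gata1 had 2, 2 and 0 in RC and 0 in every RN mouse. Slc4a1, the anion exchanger of the red cell membrane, had 16, 23 and 19 counts in RC mice and 33, 22 and 5 in RN, and the log2 fold change was 0.02 (standard error 0.603). The erythroid list had 17 of its 18 genes in the count data and 5 tested, and none of the 17 was at 0 in every mouse. Its summed level was 348 to 370 CPM in RC mice and 357 to 379 in RN, most of it from Sptb, Ank1 and Bpgm, which other tissues also use. Bpgm, the enzyme that makes the bisphosphoglycerate that tunes oxygen release, was the 1 tested gene of this list at an unadjusted p under 0.05, with 1578, 1715 and 1613 counts in RC mice and 1375, 1561 and 1358 in RN. In CPM its RN mice lay below its RC mice (log2 fold change -0.23, standard error 0.0904, unadjusted p = 0.0325, adjusted p = 0.360 in edgeR). With the choroid plexus score the value was -0.15 at an unadjusted p of 0.335, and without single mice its unadjusted p ran from 0.0223 to 0.114. Car1, a carbonic anhydrase of red cells, had 86 counts in RN1 and 2 to 7 in the other mice, and was not tested.

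Other blood cells were compared in the same way, since neutrophils and platelets travel with red cells. The 8 neutrophil markers summed to 7.96, 9.56 and 15.8 CPM in RC1, RC2 and RC3 and to 16.8, 14.8 and 6.43 in RN1, RN2 and RN3, so RN3 was the lowest for both neutrophil and hemoglobin transcripts while RN1 was the highest for neutrophils. Mmp8, a neutrophil collagenase that other cells can also make, supplied 82 of the 115 neutrophil counts in RN3. It was the 1 gene of 5 tested in that list at an unadjusted p under 0.05 in edgeR. It had 7, 6 and 15 counts in RC mice and 32, 70 and 82 in RN (adjusted p = 0.0967 in edgeR). Its means were 0.537 ± 0.280 CPM in RC mice and 3.41 ± 1.37 in RN. DESeq2 gave Mmp8 an adjusted p of 0.000319 and called it at both limits, beside 186 of the 16228 genes DESeq2 tested. The 7 platelet markers summed to 4.82 to 5.92 CPM in RC mice and 4.28 to 4.53 in RN. No marker of either list was at 0 in all mice. How much blood the tissue held, and its part in the hemoglobin values, was not tested.

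Hmox1 (ENSMUSG00000005413), the heme oxygenase that is induced by heme and oxidative stress, was lower in RN on average but overlapped. It was at 51.4, 61.7 and 56.8 CPM in RC1, RC2 and RC3 and at 34.3, 47.4 and 55.3 CPM in RN1, RN2 and RN3. RN1 was the lowest mouse, and RN3 lay among the RC mice. The log2 fold change was -0.31 with a standard error of 0.167 (adjusted p = 0.544 in edgeR), with a 95% interval from -0.70 to 0.07. Without RN1 it was -0.14. With the replicate number as a block its unadjusted p was 0.0319 (adjusted p = 0.305), which raised the number of the 10 genes under 0.05 from 1 to 2. RN1 was the lowest mouse for Hmox1 but not for hemoglobin, and the Hmox1 correlation with the hemoglobin rows over the 6 mice was between 0.149 and 0.283. Fth1 correlated with Hmox1 at 0.778 and with Alas2 at 0.590. With the hemoglobin rows, Slc40a1 correlated at -0.771 to -0.710, and Ftl1 and Tfrc lay between -0.133 and 0.0119.

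Of the 13 genes that break down, bind or move heme, 12 were tested and 1 had an unadjusted p under 0.05, on the lower side. Slc48a1 (ENSMUSG00000081534), a transporter that moves heme out of lysosomes, was at 176, 221 and 193 CPM in RC mice and 160, 161 and 152 CPM in RN mice. Each RN mouse lay below each RC mouse (log2 fold change -0.32, standard error 0.10, adjusted p = 0.238 in edgeR). With the choroid plexus score the value was -0.21 and its unadjusted p 0.219. Flvcr2, a membrane transporter of brain endothelium, was at 6.23 ± 2.18 CPM in RC mice and 4.33 ± 0.675 CPM in RN mice (log2 fold change -0.52, adjusted p = 0.539), and with the choroid plexus score its value was 0.10. Hmox2, the constitutive heme oxygenase, was at 89.9 ± 2.99 CPM in RC mice and 92.7 ± 5.37 in RN. Hpx, the plasma protein that binds free heme, had 9, 8 and 7 counts in RC mice and 3, 7 and 11 in RN, too few for the test, and Cd163, the macrophage receptor for hemoglobin bound to haptoglobin, had 8 to 24 counts in a mouse. The median log2 fold change over the list was -0.14.

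The fitted differences of the ferritin chains had opposite signs, and Fth1 was the gene of the 10 with the clearest separation. Fth1 (ENSMUSG00000024661), the heavy chain that oxidises iron for storage, was at 3689, 5006 and 4745 CPM in RC1, RC2 and RC3 and at 3050, 3578 and 3356 CPM in RN1, RN2 and RN3. All RN mice lay below all RC mice, although RN2 and RC1 were close. The means were 4480 ± 697 CPM in RC mice and 3328 ± 265 in RN, and the log2 fold change was -0.43 (standard error 0.122), or 1.35-fold lower in RN. Its unadjusted p was 0.00757 and its adjusted p 0.206 in edgeR, which ranked it 548 of the tested genes, while DESeq2 gave an adjusted p of 0.0494 without a fold limit, a level that 1.55% of the genes DESeq2 tested reached in the lower direction. Leaving out any 1 mouse kept the log2 fold change between -0.55 and -0.34 with an unadjusted p under 0.05 each time. With a choroid plexus score in the edgeR fit the log2 fold change was -0.41, the standard error 0.191 and the unadjusted p 0.0650. No gene of the 10 then remained under 0.05.

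Ftl1 (ENSMUSG00000050708), the light chain that helps iron form a mineral core, was at 770, 974 and 863 CPM in RC mice and at 865, 976 and 1027 CPM in RN mice. The groups overlapped, and the log2 fold change was 0.14 with a standard error of 0.108 (adjusted p = 0.716 in edgeR), with a 95% interval from -0.11 to 0.39. The pseudogene Ftl1-ps1, which has a row of its own, was at 2.80 ± 0.503 CPM in RC mice and 2.69 ± 0.669 CPM in RN mice. Within a library, Fth1 had 4.79, 5.14 and 5.50 times the counts of Ftl1 in RC1, RC2 and RC3 and 3.53, 3.67 and 3.27 times in RN1, RN2 and RN3. The ratio is of counts, not per length, so only its change between mice can be read, and it was chosen after the values were seen, so no test is given. It was lower in every RN mouse than in every RC mouse, by 0.56 on the log2 scale on average and by 0.51 to 0.61 with each mouse left out in turn.

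**Figure D4:**
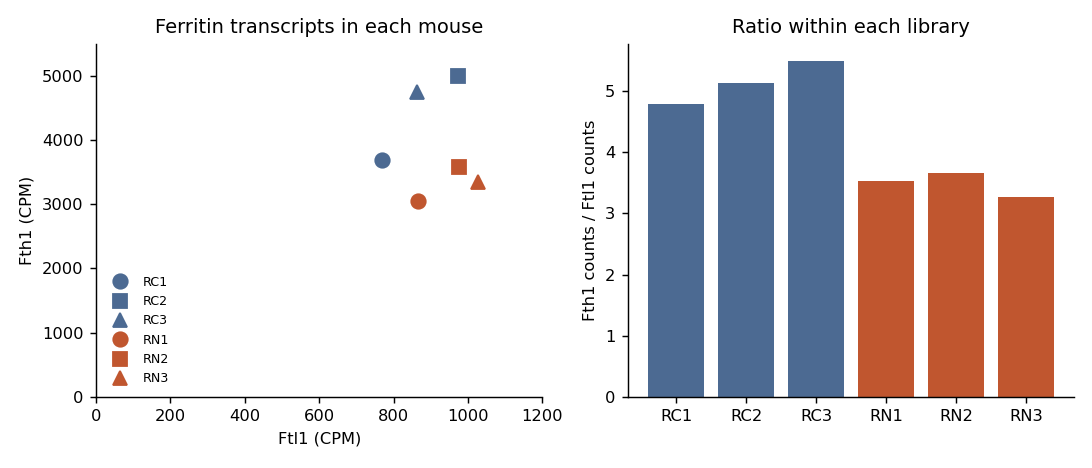
Left, Fth1 against Ftl1 in CPM for each mouse, both axes from 0. Right, the ratio of Fth1 to Ftl1 counts within each library. The RC mice lie at ratios of 4.79 to 5.50 and the RN mice at 3.27 to 3.67.

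Markers of cell types that hold ferritin are set beside these values. The summed level of 10 macrophage and phagocyte markers was 2829 to 3364 CPM in RC mice and 3398 to 5590 in RN, with 5 of 10 genes higher at an unadjusted p under 0.05. The 7 astrocyte markers summed to 4831 to 6114 CPM in RC mice and 3365 to 4410 in RN, with 4 of 7 lower at that level, and the 9 endothelial markers to 433 to 508 CPM in RC mice and 315 to 399 in RN, with 5 of 9 lower. The 8 microglial markers summed to 900 to 973 CPM in RC mice and 754 to 1030 in RN, and the 8 oligodendrocyte markers to 12151 to 15688 CPM and 9725 to 13293, with 0 and 1 of 8 at that level. Over all tested genes 5.44% were higher and 6.33% lower at that level, and the marker lists were chosen with earlier results known. Lyz2 was the largest part of the macrophage sum, Gfap of the astrocyte sum and Mbp of the oligodendrocyte sum. The log2 fold changes of Lyz2 and Mbp were 0.20 and -0.19 (unadjusted p = 0.222 and 0.209 in edgeR). Gfap was at 2461 ± 538 CPM in RC mice and 1793 ± 429 in RN. In the macrophage list 8 of 10 fitted differences were above 0 and 2 below. DESeq2 called 3 of these 10 genes at both limits, beside 186 of the 16228 genes it tested. Gpnmb, the macrophage marker of smallest p in edgeR, was at 424 ± 79.4 CPM in RC mice and 1111 ± 295 in RN. None of these markers was at 0 in all mice. The part of cell composition in the ferritin values was not tested.

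Iron storage and its partners gave 1 gene in each direction at an unadjusted p under 0.05. Ncoa4 (ENSMUSG00000056234), the receptor that delivers ferritin to lysosomes for breakdown, was at 152, 145 and 132 CPM in RC mice and 161, 166 and 165 CPM in RN mice. It lay higher in every RN mouse (log2 fold change 0.19, standard error 0.0839, unadjusted p = 0.0486, adjusted p = 0.421 in edgeR). With the replicate block its unadjusted p was 0.0534. Pcbp1, a chaperone that carries iron to ferritin, was at 190 ± 22.7 CPM in RC mice and 189 ± 3.28 in RN, and mitochondrial ferritin, Ftmt, had 0 counts in every mouse.

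Slc40a1 (ENSMUSG00000025993), ferroportin, the exporter of iron from cells, was at 18.6, 16.3 and 16.5 CPM in RC mice and at 15.9, 14.2 and 22.8 CPM in RN mice. RN3 was the highest mouse and RN2 the lowest, so the RN mice enclosed the RC mice. The log2 fold change was 0.04 with a standard error of 0.188 (adjusted p = 0.968 in edgeR), with a 95% interval from -0.39 to 0.47, and it became -0.19 without RN3. Heph (ENSMUSG00000031209), hephaestin, a ferroxidase that works beside ferroportin, was at 15.1, 16.1 and 14.9 CPM in RC mice and 11.1, 12.1 and 12.8 CPM in RN mice. Each RN mouse lay below each RC mouse, and the fitted log2 difference was -0.36 (standard error 0.129, unadjusted p = 0.0237, adjusted p = 0.318). With the choroid plexus score it was -0.27 at an unadjusted p of 0.238. Cp, ceruloplasmin, the ferroxidase that astrocytes make, was at 38.5 ± 13.2 CPM in RC mice and 37.9 ± 5.16 in RN.

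Tfrc (ENSMUSG00000022797), the transferrin receptor, was at 91.2, 62.9 and 66.2 CPM in RC mice and at 76.3, 78.3 and 59.0 CPM in RN mice. RC1 was the highest and RN3 the lowest, and the groups overlapped throughout. Its log2 fold change was -0.05 with a standard error of 0.166 (adjusted p = 0.959 in edgeR), with a 95% interval from -0.43 to 0.34, and it was 0.14 without RC1 and 0.07 without RN3. Of the other iron uptake genes Steap2, which reduces iron for transport, was at 41.9 ± 13.7 CPM in RC mice and 30.0 ± 1.22 CPM in RN mice (log2 fold change -0.48, unadjusted p = 0.0484, adjusted p = 0.421). This value was 0.19 with the choroid plexus score in the fit, and with the replicate block its unadjusted p was 0.0528. Slc11a1, the phagosomal metal transporter of macrophages, gave 0.30 and Scara5, a ferritin receptor, -0.78, with adjusted p of 0.482 and 0.684. The Scara5 value was -0.08 without RC2 and 1.01 with the choroid plexus score. Trf, transferrin itself, was at 1653 ± 316 CPM in RC mice and 1650 ± 384 CPM in RN mice, and its fitted value was 0.36 with the choroid plexus score. Over the 10 tested uptake genes the median log2 fold change was -0.02.

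Genes that sense iron or set systemic iron gave 0 of 10 tested at an unadjusted p under 0.05 in edgeR and 0 at an adjusted p under 0.05 in DESeq2. Their median log2 fold change was -0.11. Aco1, which encodes iron regulatory protein 1, the factor that binds the hairpins printed above, was at 46.0 ± 6.92 CPM in RC mice and 39.7 ± 1.66 in RN, and Ireb2, iron regulatory protein 2, at 47.0 ± 9.14 and 46.7 ± 4.63. Aco1 lay lower in RN without overlap, with a log2 fold change of -0.21 and an adjusted p of 0.567, and it was 0.0427 with the choroid plexus score. Bmp2 and Bmp6, ligands upstream of hepcidin, gave log2 fold changes of 0.37 and -0.64, with adjusted p of 0.475 and 0.527. The Bmp6 value was -0.28 without RC2 and 0.40 with the choroid plexus score, and with the replicate block it was -0.60 at an unadjusted p of 0.00396, which made the count of this list 1 of 10. Hamp, hepcidin, the hormone that closes ferroportin, had 1 count in RN2 and 0 in the other mice, which allows up to 3 counts in each.

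Mitochondrial iron and iron-sulfur genes lay between -0.22 and 0.10 in log2 fold change, with 13 of 13 tested and a median of -0.03. Nfs1, the cysteine desulfurase that supplies sulfur, was at 50.4 ± 2.50 CPM in RC mice and 43.2 ± 3.34 in RN without overlap, the 1 gene of this list at an unadjusted p under 0.05 (0.0456, adjusted p = 0.410 in edgeR), where the choroid plexus score gave 0.281. Abcb10, a mitochondrial transporter needed for heme synthesis, and Isca1, an iron-sulfur carrier, gave 0.10 and -0.06.

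Targets of NRF2, the oxidative stress factor that also drives Hmox1 and ferritin, gave values in both directions. Of 10 tested genes 1 was higher and 2 were lower at an unadjusted p under 0.05. Srxn1 (ENSMUSG00000032802), sulfiredoxin, which repairs oxidised peroxiredoxins, was at 115, 129 and 148 CPM in RC mice and 155, 193 and 188 CPM in RN mice. All RN mice lay above all RC mice (log2 fold change 0.45, standard error 0.123, adjusted p = 0.191 in edgeR and 0.0362 in DESeq2 without a fold limit). With the choroid plexus score the value was 0.31 at an unadjusted p of 0.154. Slc7a11 (ENSMUSG00000027737), the cystine importer that feeds glutathione synthesis, was at 66.6, 42.3 and 51.7 CPM in RC mice and 40.0, 38.3 and 34.3 CPM in RN mice. All RN mice lay below all RC mice (log2 fold change -0.51, standard error 0.161, adjusted p = 0.242). Nqo1, a quinone reductase, was at 12.3 ± 3.18 CPM in RC mice and 8.72 ± 0.826 in RN (log2 fold change -0.50, adjusted p = 0.415), which was 0.09 with the choroid plexus score in the fit.

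Regulators of ferroptosis, a form of cell death driven by iron and lipid peroxidation, gave 1 gene higher and 1 lower of 8 tested at that level. The lower gene was Slc7a11. The higher was Chac1, an enzyme that degrades glutathione, at 7.64 ± 2.21 CPM in RC mice and 11.2 ± 0.619 in RN without overlap (log2 fold change 0.55, adjusted p = 0.379 in edgeR). That value was -0.0012 with the choroid plexus score. Gpx4, the glutathione peroxidase that removes lipid peroxides, was at 381 ± 53.5 CPM in RC mice and 328 ± 19.9 CPM in RN mice (log2 fold change -0.22, adjusted p = 0.529), and with the replicate block its unadjusted p was 0.0420.

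**Figure D5:**
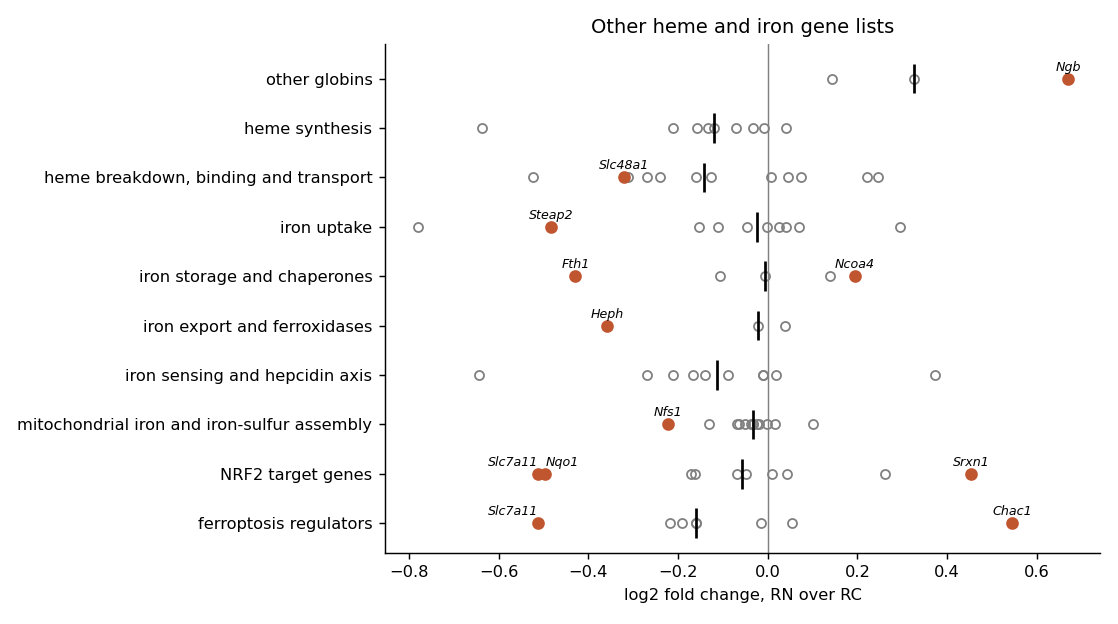
Log2 fold changes of RN over RC for every tested gene of 10 heme and iron lists, with 1 row for each list, including the described genes where they belong to it. Filled orange points have an unadjusted p under 0.05 and are named, open grey points do not, and vertical bars are the list medians, which lie between -0.16 and 0.33.

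The genes whose levels most resembled the summed hemoglobins over the 6 mice were Tom1, Ift20, Net1, Rtn4r and Gtf2h5, with Pearson's r of log2 CPM from 0.983 to 0.987. All 5 ranked RN3 lowest, then RC1, RN1 and RN2, with RC2 and RC3 at the top, over a smaller range than hemoglobin, Tom1 for example from 62.4 CPM in RN3 and 66.4 in RC1 to 79.5 in RC2. In all 123 tested genes exceeded an r of 0.9 with hemoglobin. For Hmox1 the nearest genes were Gtpbp1, Stk40, Tmem218, Atf5 and Lsr, with r from 0.983 to 0.997, and 163 genes exceeded 0.9. With 6 points in shared libraries, and the nearest picked from 14956 genes, these values only describe likeness.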

How the data were processed

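Bulk RNA-seq counts from the thalamus of 6 mice were analysed, and each sample's group and replicate number came from its labels. The authors deposited whole-number read counts per gene without normalization, with 1 column per mouse. The submitters' processing notes list fastp 0.18.0, FastQC, HISAT2 2.2.4, RSEM 1.2.19 and the build GRCm39. Annotation, use of strand and the handling of shared reads are not given in the sources used here, so reads of near-identical copies or antisense partners cannot be told apart, and sequences come from GRCm38 annotation.

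The 10 genes and all gene and marker lists were chosen with earlier results of these data known. From the deposited counts, edgeR 4.0.16 (R 4.3.3, limma 3.58.1) filtered genes with filterByExpr (minimum count 10), scaled by TMM and ran its quasi-likelihood test (legacy option) with group as the only term. P-values were adjusted by Benjamini-Hochberg over the 14956 tested genes. Calls needed an adjusted p under 0.05 with a 2-fold difference. These limits are those of the study's methods, which applied them to DESeq2 and not to edgeR. Prior counts were 2 for log2 CPM and 0.125 for fitted fold changes. Normalized counts varied between mice of a group with a biological coefficient of variation of 17.4%. Nothing in the labels names litters or days, so p-values measure the spread between these mice. Beyond the 10 genes, the text names each heme and iron list's genes of smallest p, at most 3, and the 5 genes most correlated with hemoglobin and with Hmox1. Further genes of these lists and the marker genes named were chosen after their values were seen.

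Mice with the same replicate number deviated from their group means together, at correlations across genes of 0.173, 0.120 and 0.209, although RC1 and RN2 did so at 0.156. The numbers were therefore taken as a possible pairing, from the data alone. They entered only an alternative fit, as a block, and not the main fit. Alternatives were DESeq2 1.42.0, its size factors, edgeR without the legacy option, other filters, no fold limit, the replicate block, a choroid plexus score, summed copies and each mouse left out. The scripts were tested on simulated data.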

Additional observations from a re-analysis of the deposited data

How the results depend on the processing

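None of the 10 genes was called under any alternative. At an unadjusted p under 0.05 the count of 1 became 2 without the filter on low counts, 2 with the replicate block, 0 with a choroid plexus score as a covariate, and 1 to 5 with each mouse left out. The share of all genes at that level was not counted in these alternative fits. The adjusted p of Fth1 ranged from 0.0494 to 0.571, and its direction held in every fit. The hemoglobin difference stayed between -1.41 and -0.39 (log2) with each mouse left out. The replicate block left it at -0.87 (exact sign-flip test over the replicate pairs, p = 0.5). With so few pairs that test cannot give a p under 0.05. The block changed no other call by the adjusted p among the heme and iron genes named. At an unadjusted p under 0.05 it also added Bmp6 and Gpx4 and lost Steap2 and Ncoa4 (values beside each gene).

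Genes called higher and lower among all genes, 9 and 2 at first, became 99 and 87 with DESeq2, 36 and 7 without the filter, 17 and 5 with the replicate block, and 0 and 1 with the choroid plexus score. With each mouse left out they ran from 3 to 26 and from 0 to 18. The cause was not tested.

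Among genes named singly, the choroid plexus score turned the sign of Alas1 (0.11), Urod (0.0401), Fech (0.16), Flvcr2 (0.10), Steap2 (0.19), Scara5 (1.01), Bmp6 (0.40), Aco1 (0.0427), Nqo1 (0.0886), Chac1 (-0.00116), Pcbp1 (0.0344) and Trf (0.36). The replicate block turned Cp (0.0183), Slc4a1 (-0.17), Pcbp1 (0.00078) and Ireb2 (0.0032). Trf was 0.00058 with DESeq2 and 0.00047 with its size factors, and Cd163 -0.0010 without the legacy option. With each mouse left out the log2 fold change ran from -0.19 to 0.17 for Slc40a1, -0.14 to 0.14 for Tfrc, -0.14 to 0.70 for Mb, -0.20 to 0.29 for Cp, -0.61 to 0.48 for Slc4a1, -0.10 to 0.0717 for Pcbp1, -0.14 to 0.14 for Ireb2, -0.00715 to 0.0814 for Hmox2, -0.21 to 0.16 for Trf, -0.24 to 0.65 for Cd163 and -0.22 to 0.13 for Ftl1-ps1.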
